A study of Chlamydomonas reinhardtii with 18 samples.

Results

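Cultures of the green alga *Chlamydomonas reinhardtii* that received no nitrite were compared at 3 h and at 15 min of one time course in darkness. The comparison took in 6 of the 18 libraries of the series, 3 collected at 3 h and 3 at 15 min, chosen by their titles alone, and all 17766 genes of the count tables. The strain was 6145c in every group, grown at 25 °C in the dark. Time was counted from the moment when other flasks of the same design received 10 mM nitrite. The cultures had already been in darkness before that moment, for a length that is not given in the sources used here, so 15 min and 3 h are not the first minutes and hours of darkness. Each arm had triplicate growth flasks, and the labels do not say which libraries of different times came from the same flask. The 6 nitrite libraries at 3 h and 15 min were used for values set beside those of the control arm, and the 3 control libraries at 24 h for later levels. The experiment belongs to a study of nitrous oxide formation, in which the untreated cultures give the course of the transcriptome without added nitrite.

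*Chlamydomonas* is a unicellular alga that can live by photosynthesis or, in the dark, on acetate and stored starch. It makes chlorophyll in darkness as well as in light, by a branched pathway that begins with glutamate and shares its first steps with haem synthesis. In dark cultures with little oxygen the alga turns to fermentation, in which pyruvate is split to formate, acetyl-CoA, ethanol and, through ferredoxin, hydrogen. Acetate is taken into metabolism through acetyl-CoA and the glyoxylate cycle. Many of its transcripts also follow a daily rhythm.

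Reads assigned to genes numbered 6695500 to 7915971 in the 3 h libraries and 6890064 to 8363659 in the 15 min libraries. Levels are given as CPM, counts relative to the library's total, scaled by the trimmed mean of M-values (TMM), and are not corrected for gene length, so that levels of different genes are not compared. A gene was said to have risen or fallen when its adjusted p in edgeR's quasi-likelihood test was under 0.05. Among the 6 control libraries, 3 h number 3 stood apart. In it 36.5% of the reads aligned to more than 1 place, against 18.1% to 19.4% in the other libraries at 3 h and 17.7% to 18.6% at 15 min. Its TMM factor was 0.604, and on the first principal component of the 6 libraries, which held 53.4% of the variance, the 3 h libraries lay at -2.62, 24.5 and 65.4 and the 15 min libraries at -37.9, -31.3 and -18.1. In the nitrite arm the libraries labelled 15 min number 2 and 3 h number 2 each lay with the other time of their arm, as the chlorophyll values below show. These 2 libraries are in no control group, but they enter the estimate of the spread that all 6 groups share. With control 3 h number 3 they are called below the 3 libraries that stood apart. RNA was taken from whole cultures, in which fewer cells with a transcript and less of it per cell cannot be told apart.

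After TMM scaling, transcripts for the enzymes of chlorophyll and haem synthesis were more abundant at 3 h than at 15 min. Their summed level was 199 to 218 CPM at 3 h, against 87.7 to 96.4 CPM at 15 min. Those for fermentation and hydrogen metabolism were less abundant, with 667 to 816 CPM at 3 h, against 1160 to 1692 CPM at 15 min. Most of the light-harvesting genes and all 4 loci of the glyoxylate cycle and acetate use were also lower at 3 h, while few single genes passed the adjusted test. Of 13564 genes tested, 118 had risen at 3 h relative to 15 min (0.87%) and 53 had fallen (0.391%), together 1.26% (edgeR quasi-likelihood test, Benjamini-Hochberg adjustment). At an unadjusted p under 0.05 there were 3121 genes (23%), 1674 higher (12.3%) and 1447 lower (10.7%). The number of calls differed widely between fits. It was 1271 when only the 6 control libraries were fitted, and 1980 when the libraries labelled nitrite 15 min number 2 and 3 h number 2 were left out, a choice made after their values were seen. Both counts were split nearly evenly, with 679 and 1044 genes higher. All 171 genes called with the 18 libraries were also called in the second of these fits, and 170 of them in the first. In the other direction, leaving out control 3 h number 3 left 15 genes, 14 of them higher, and leaving out 3 h number 2 left 3. Leaving out 15 min number 1, 2 or 3 left 6, 4 and 4 genes, while without 3 h number 1 there were 894, and without TMM scaling no gene was called. Counts of called genes are therefore given below beside the values in each library.

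The 118 genes that rose had a median log2 fold change of 1.32, with a range of 0.66 to 3.58, and 86 of them rose by at least 2-fold. The 53 genes that fell had a median of -1.20, between -2.16 and -0.76, and 41 fell by at least 2-fold. For each of these genes the 3 libraries at 3 h did not overlap the 3 at 15 min. That was also so for 2157 of all genes upward (15.9%) and 1959 downward (14.4%). The genes that rose had a median level of 11.5 CPM and those that fell 10.4 CPM, against 7.14 CPM over all genes tested. Without control 3 h number 3 the medians were 1.25 and -1.21, and all 118 and all 53 kept their sign.

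**Figure D1:**
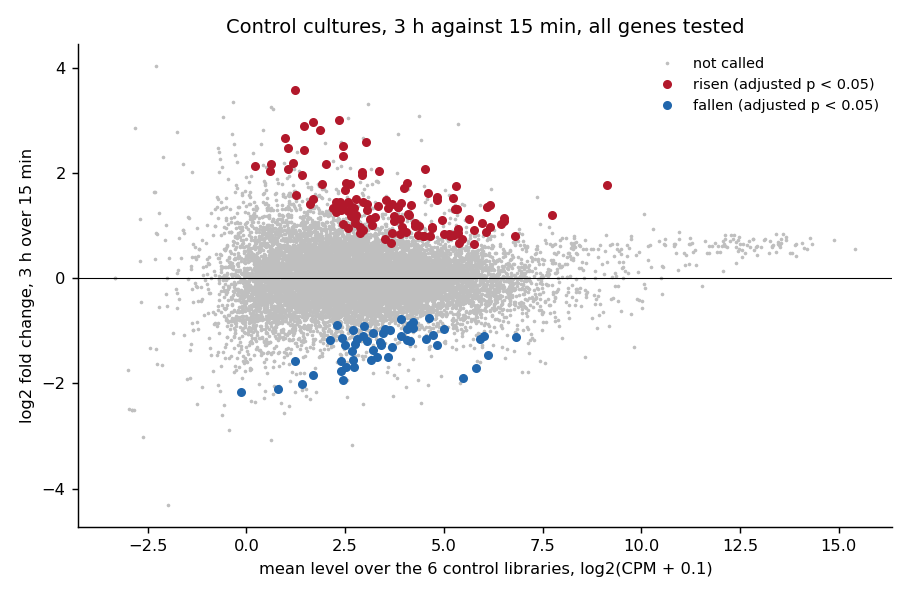
Each point is 1 of the 13564 genes tested, with its mean level over the 6 control libraries on the x axis, as log2(CPM + 0.1), and its log2 fold change, 3 h over 15 min, on the y axis. The 118 risen genes (red) have log2 fold changes of 0.66 to 3.58 and the 53 fallen genes (blue) of -2.16 to -0.76; the 111 genes with a mean of at least 1000 CPM, at the right, lie mostly above 0 and none is coloured.

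The group of genes with the largest median change was that of chlorophyll and haem synthesis, the enzymes that lead from glutamate through protoporphyrin to either pigment. Its 18 loci, like those of all lists used here, were entered from prior knowledge of the identifiers, which the files cannot check. All 17 tested members were higher at 3 h, against 50.8% of all genes, with a median log2 fold change of 1.86 and a range of 0.15 to 2.83, beside a median of 0.01 over all genes tested. Only 2 of the 17 rose by the adjusted test (0.87% of all genes did). At an unadjusted p under 0.05, 15 were higher, against 12.3% of all genes. Between times 13 did not overlap, against 15.9% of all genes upward. Untested for low counts was Cre09.g396300. Summed over the members the level was 215, 218 and 199 CPM at 3 h, against 96.4, 87.7 and 88.5 CPM at 15 min. After TMM scaling every sum at 3 h lay above every sum at 15 min. The TMM factor was 0.604 for control 3 h number 3 and 1.437 for control 15 min number 1. The separation of number 3 at 3 h from the 15 min libraries therefore depends on the scaling. The median of the list was 1.5 to 1.94 in every setting tried, the lowest without scaling.

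Cre06.g306300, on chromosome 6 from 8333800 to 8337913, was one of the 2 that rose, with coordinates here and below from assembly Chlamydomonas_reinhardtii_v5.5, the release that the identifiers in the files carry. It had 34.2, 36.8 and 39.3 CPM at 3 h, against 9.33, 7.60 and 9.18 CPM at 15 min (log2 fold change 2.07, SE 0.49, edgeR adjusted p = 0.0489). Cre05.g242000, on chromosome 5 from 1830301 to 1836438, had 9.45, 9.49 and 8.65 CPM at 3 h, against 1.58, 1.87 and 1.29 CPM at 15 min (log2 fold change 2.52, SE 0.56, edgeR adjusted p = 0.0394). In both genes the replicates of each time lay close together and far from the other time. Their adjusted p was at most 0.188 and 0.177 when 1 control library was left out, and the calls were lost in 5 of those 6 fits. With the libraries labelled nitrite 15 min number 2 and 3 h number 2 left out, 12 of the 17 members rose, in a fit in which 7.61% of all genes rose. Without the 3 libraries that stood apart 13 did, against 5.995% of all genes.

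Members of the list differed in size of change. The smallest log2 fold change, 0.15, was that of Cre01.g043350, with 11.9, 13.3 and 8.41 CPM at 3 h, against 11.9, 8.89 and 9.89 CPM at 15 min. At the other end, Cre05.g246800 had 1.68, 2.41 and 2.47 CPM at 3 h, against 0.416, 0.234 and 0.143 CPM at 15 min (log2 fold change 2.83, edgeR adjusted p = 0.072). Cre16.g663900 had 6.72, 6.80 and 5.93 CPM at 3 h, against 0.916, 0.702 and 1.15 CPM at 15 min (log2 fold change 2.82, edgeR adjusted p = 0.0847). Neither passed the test, although their libraries did not overlap. These 3 members were chosen for mention after their values were seen, as the smallest and the 2 largest log2 fold changes.

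**Figure D2:**
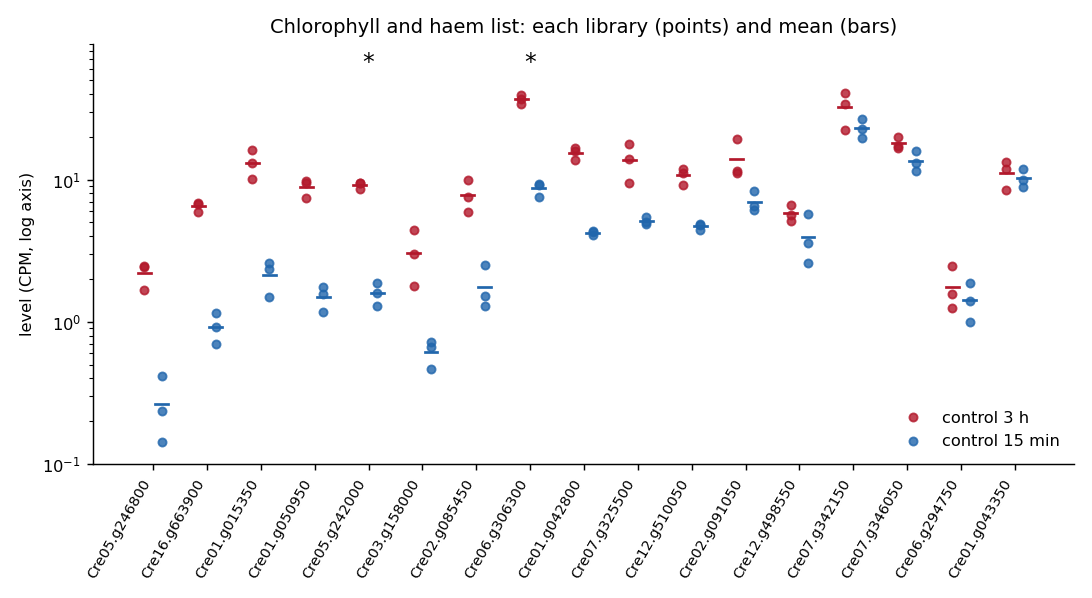
Level of each of the 17 tested loci of chlorophyll and haem synthesis on a log axis in CPM, in control libraries at 3 h (red) and 15 min (blue); points are libraries, bars are means of 3, and asterisks mark the 2 genes with an adjusted p under 0.05. The loci run from the largest log2 fold change, 2.83, at the left to the smallest, 0.15, at the right. Of them 13 do not overlap between times, against 15.9% of all genes upward.

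Light-harvesting proteins bind chlorophyll in the antennae. Of their 21 genes none changed by the adjusted test. At an unadjusted p under 0.05, 14 were lower and 2 higher, where 10.7% of all genes were lower and 12.3% higher. The median log2 fold change of the list was -0.82, with a range of -2.16 to 1.63. Their summed level was 1264, 1795 and 2574 CPM at 3 h, against 3016, 2857 and 2943 CPM at 15 min. After TMM scaling the 3 sums at 3 h were all lower than those at 15 min, but they spread widely and number 3 lay near the 15 min libraries. The TMM factors at 3 h were 1.323, 0.892 and 0.604, so this spread and the place of number 3 depend on the scaling. Without scaling the median of the list was -1.3. Without control 3 h number 3 the median with scaling was -1.14. Without the 3 libraries that stood apart 15 members fell and 1 rose, where 6.002% of all genes fell and 5.995% rose. Without control 3 h number 1 instead, 2 members rose and none fell, where 3.34% of all genes rose and 3.165% fell. Some of these genes are near-identical copies. Reads with several alignments lie outside the gene counts, so single members are uncertain. The 22 nuclear subunits of photosynthetic electron transport had no member that changed and a median of -0.33. At an unadjusted p under 0.05, 4 of the 22 were lower, against 10.7% of all genes. Without the 3 libraries that stood apart 10 of the subunits fell, against 6.002% of all genes. After TMM scaling their summed level overlapped, with 11070, 16310 and 24600 CPM at 3 h, against 13640, 16650 and 18330 CPM at 15 min. This overlap depends on the scaling, in which control 3 h number 3 had a factor of 0.604. Without scaling the median of these subunits was -0.77. Of 5 stress-related light-harvesting loci 1 was tested, Cre01.g016600, with 0.420, 0.425 and 1.48 CPM at 3 h, against 0.25, 1.05 and 0.717 CPM at 15 min. The other 4 had too few reads for a test.

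In the Calvin cycle, which fixes carbon dioxide, 2 of 14 genes rose and none fell, where 0.87% of all genes rose and 0.391% fell. Without the nitrite libraries labelled number 2, 4 rose and 3 fell, where 7.61% of all genes rose and 6.83% fell. Without the 3 libraries that stood apart also 4 rose and 3 fell, where 5.995% of all genes rose and 6.002% fell. Cre12.g511900, on chromosome 12 from 1825706 to 1828406, had 663, 807 and 1157 CPM at 3 h, against 215, 254 and 300 CPM at 15 min. Its log2 fold change was 1.77 with an SE of 0.35, at an adjusted p of 0.0314 in edgeR. Cre03.g187450, on chromosome 3 from 5660281 to 5661787, had 212, 261 and 424 CPM at 3 h, against 104, 117 and 165 CPM at 15 min (log2 fold change 1.21, SE 0.28, edgeR adjusted p = 0.0403). In both genes control 3 h number 3 was the highest library. Without it the log2 fold changes were 1.51 and 0.87, with adjusted p of 0.114 and 0.152, and both calls were also lost when 3 h number 2 or any 1 of the 15 min libraries was left out. The other 12 did not move together. The list's median was 0.14, and without scaling it turned to -0.25. At an unadjusted p under 0.05, 3 members were lower, against 10.7% of all genes. At 24 h Cre12.g511900 averaged 520 CPM, against 256 CPM at 15 min, and Cre03.g187450 averaged 101 CPM, against 129 CPM at 15 min.

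Of 15 loci of the carbon dioxide concentrating mechanism, which raises inorganic carbon around Rubisco, 9 were tested and none changed. Their median was 0.24, which turned to -0.11 without scaling, and 4 were higher at an unadjusted p under 0.05, against 12.3% of all genes. After TMM scaling their summed level was 1105, 1295 and 1110 CPM at 3 h, against 969, 780 and 656 CPM at 15 min, without overlap. This separation depends on the scaling, in which control 3 h number 3 had a factor of 0.604 and control 15 min number 1 a factor of 1.437. Starch genes were divided. Of 9 tested none changed. At an unadjusted p under 0.05, 3 were higher and 3 lower, where 12.3% of all genes were higher and 10.7% lower. Each of these 6 was without overlap between times, as were 15.9% of all genes upward and 14.4% downward. Their log2 fold changes ran from -1.07 to 1.54, and their median was -0.13.

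Genes of fermentation and hydrogen metabolism had the lowest median of all lists, -1.18. None of the 9 tested changed by the adjusted test. At an unadjusted p under 0.05, 8 were lower, against 10.7% of all genes. Each of these 8 was without overlap between times, as were 14.4% of all genes downward. Their summed level was 816, 813 and 667 CPM at 3 h, against 1692, 1530 and 1160 CPM at 15 min. Each library at 3 h thus lay under each library at 15 min. The list's median stayed between -1.48 and -1.07 in every setting tried. Without the libraries labelled nitrite 15 min number 2 and 3 h number 2, 8 of the 9 fell, against 6.83% of all genes, and without the 3 libraries that stood apart 6 fell, against 6.002%.

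The 4 loci of the glyoxylate cycle and acetate use were all lower at 3 h, without overlap, as were 14.4% of all genes, and none passed the adjusted test. Cre06.g282800 had 476, 586 and 623 CPM at 3 h, against 917, 940 and 742 CPM at 15 min (log2 fold change -0.63, edgeR adjusted p = 0.149). Cre02.g141400 had 307, 359 and 295 CPM at 3 h, against 585, 599 and 448 CPM at 15 min (log2 fold change -0.76, edgeR adjusted p = 0.107). The other members differed by similar amounts. Cre07.g353450 had 397, 399 and 322 CPM at 3 h, against 667, 635 and 510 CPM at 15 min (log2 fold change -0.70, edgeR adjusted p = 0.0825). Cre03.g144807 had 86.7, 95.4 and 93.9 CPM at 3 h, against 133, 149 and 112 CPM at 15 min (log2 fold change -0.51, edgeR adjusted p = 0.178). Leaving out the libraries labelled nitrite 15 min number 2 and 3 h number 2 gave 2 calls among the 4, both lower, in a fit in which 6.83% of all genes fell. Of 11 genes of the tricarboxylic acid cycle, the respiratory pathway that follows, none changed, 6 were lower at an unadjusted p under 0.05, against 10.7% of all genes, and 10 had a negative log2 fold change, with a median of -0.47. Without the nitrite libraries labelled number 2, 5 of the 11 fell, against 6.83% of all genes. Without the 3 libraries that stood apart also 5 of the 11 fell, against 6.002%. Of 2 alternative oxidase loci, the oxidase that bypasses part of the respiratory chain, Cre03.g169550 had 0.735, 0.425 and 0.494 CPM at 3 h, against 1.42, 2.34 and 2.58 CPM at 15 min (log2 fold change -1.81, edgeR adjusted p = 0.0603). Cre09.g395950 had 71.3, 88.6 and 120 CPM at 3 h, against 89.7, 104 and 95.9 CPM at 15 min, and overlapped.

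**Figure D3:**
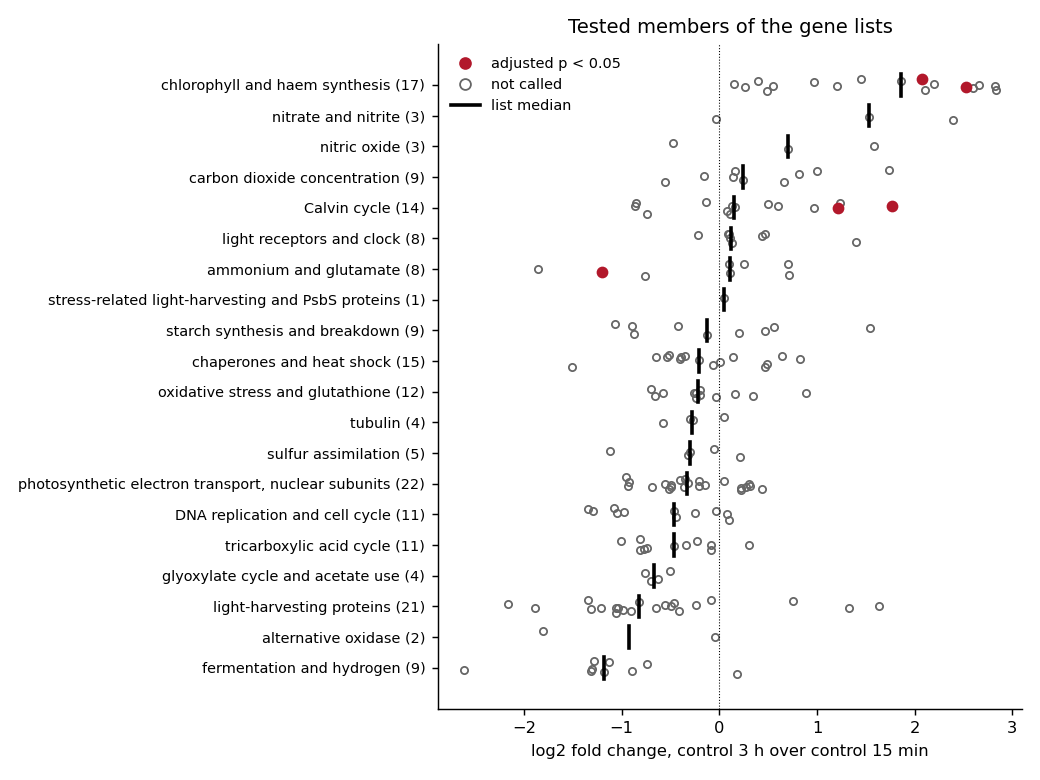
Each circle is 1 tested gene of a list, placed on the x axis by its log2 fold change, control 3 h over control 15 min, with the number of tested genes in brackets; filled circles have an adjusted p under 0.05 and thick bars are list medians. The medians run from 1.86 for chlorophyll and haem synthesis to -1.18 for fermentation and hydrogen, and 5 circles are filled.

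Among 8 loci of ammonium and glutamate metabolism 1 fell and none rose, where 0.391% of all genes fell and 0.87% rose. Cre09.g388800, on chromosome 9 from 2819531 to 2824322, had 9.66, 11.5 and 10.9 CPM at 3 h, against 23.1, 24.3 and 25.8 CPM at 15 min (log2 fold change -1.20, SE 0.27, edgeR adjusted p = 0.0391). Its replicates lay close together at either time, and at 24 h its mean was 25.7 CPM. The list as a whole was divided, with 2 members higher and 3 lower at an unadjusted p under 0.05. Of all genes 12.3% were higher and 10.7% lower. The list's median of 0.10 turned to -0.24 without scaling. The call on Cre09.g388800 was lost in 5 of the 6 fits that left out 1 control library, with an adjusted p of up to 0.177.

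Of 6 loci for nitrate and nitrite, the inorganic forms of nitrogen that the alga takes up and reduces to ammonium, 3 had too few reads for a test and none of the rest changed. Cre09.g410800 had 6.40, 4.53 and 5.44 CPM at 3 h, against 2.42, 1.05 and 2.15 CPM at 15 min, without overlap (log2 fold change 1.53, edgeR adjusted p = 0.0721). Cre09.g410900 had 1.99, 2.13 and 0.989 CPM at 3 h, against 0.333, 0 and 0.717 CPM at 15 min (edgeR adjusted p = 0.135), also without overlap. Cre03.g177700 had 11.3, 5.95 and 0.247 CPM at 3 h, against 8.33, 6.20 and 5.16 CPM at 15 min, and its lowest value was that of control 3 h number 3. Without the nitrite libraries labelled number 2, Cre09.g410800 and Cre09.g410900 rose, with edgeR adjusted p of 0.00123 and 0.00685, as they did without the 3 libraries that stood apart. These levels were low, and they were measured in cultures that received no nitrite.

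None of the 3 loci for nitric oxide metabolism changed either. Cre14.g615400 had 153, 158 and 168 CPM at 3 h, against 95.6, 104 and 95.5 CPM at 15 min (log2 fold change 0.70, edgeR adjusted p = 0.0574). Cre14.g615350 had 49.1, 57.4 and 51.2 CPM at 3 h, against 16.7, 17.1 and 18.9 CPM at 15 min (log2 fold change 1.58, edgeR adjusted p = 0.114). After TMM scaling both were higher in every library at 3 h, as were 15.9% of all genes. For Cre14.g615400 this depends on the scaling, in which control 3 h number 3 had a factor of 0.604. Cre01.g007950 had 386, 376 and 379 CPM at 3 h, against 558, 546 and 493 CPM at 15 min (log2 fold change -0.48, edgeR adjusted p = 0.205). After TMM scaling it was lower in every library at 3 h, as were 14.4% of all genes, which also depends on the scaling. Without the libraries labelled nitrite 15 min number 2 and 3 h number 2, 2 of the 3 rose, against 7.61% of all genes.

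Sulfur assimilation, by which sulfate is activated and reduced, had 5 tested loci of 7 and no change. Cre16.g693202 had 4.83, 3.54 and 2.72 CPM at 3 h, against 9.83, 8.54 and 6.60 CPM at 15 min (log2 fold change -1.12, edgeR adjusted p = 0.0517), just outside the threshold. Cre10.g445000 had 12.1, 9.21 and 11.1 CPM at 3 h, against 12.4, 12.6 and 15.1 CPM at 15 min (edgeR adjusted p = 0.355). The remaining loci overlapped between times. Cre03.g202000 had 15.2, 14.9 and 6.18 CPM at 3 h, against 15.99, 10.8 and 12.2 CPM at 15 min. Cre12.g502600 had 0.525, 0.708 and 0.989 CPM at 3 h, against 0.916, 0.819 and 0.860 CPM at 15 min. Cre16.g671350 had 1.05, 2.55 and 1.73 CPM at 3 h, against 1.33, 1.64 and 1.58 CPM at 15 min.

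Lists of protein folding, redox and growth had no member that changed. At an unadjusted p under 0.05, 12.3% of all genes were higher and 10.7% lower. Chaperones, 15 genes, had 3 higher and 3 lower at that p and a median of -0.21. Oxidative stress and glutathione, 12 genes, had 1 higher and 2 lower and a median of -0.22. DNA replication and the cell cycle, 11 genes, had 5 lower and none higher and a median of -0.47. Without the nitrite libraries labelled number 2, 3 chaperone genes rose and 1 fell, where 7.61% of all genes rose and 6.83% fell. In that fit 1 gene of oxidative stress and glutathione rose and 2 fell. Of DNA replication and the cell cycle 3 fell and none rose. The 4 tubulin loci, subunits of microtubules and flagella, had no member under 0.05 even before adjustment. Cre03.g190950 had 274, 317 and 454 CPM at 3 h, against 441, 438 and 408 CPM at 15 min. Cre04.g216850 had 170, 177 and 279 CPM at 3 h, against 259, 258 and 233 CPM at 15 min. In these, control 3 h number 3 alone lay above the 15 min libraries; tubulin genes are near-identical copies, and single loci are uncertain. Cre12.g542250 had 79.7, 87.1 and 98.9 CPM at 3 h, against 146, 140 and 112 CPM at 15 min. Cre12.g549550 had 173, 186 and 250 CPM at 3 h, against 201, 200 and 185 CPM at 15 min. Light receptors and the clock, 8 genes, had 2 higher and none lower at an unadjusted p under 0.05, against 12.3% of all genes higher. Their median was 0.12, which turned to -0.16 without scaling. Without the nitrite libraries labelled number 2, 1 of the 8 rose, against 7.61% of all genes.

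The most abundant transcripts formed a band of their own, described after the plot of all genes was seen. There were 111 genes with a mean of at least 1000 CPM over the 6 control libraries, 0.818% of the genes tested. They held 66.1%, 76.2% and 82.6% of the reads in genes at 3 h, against 61.4%, 69.8% and 72.7% at 15 min. The shares of the 2 times overlapped, and the highest were those of numbers 2 and 3 at 3 h. Of the 111 genes, 105 had a positive log2 fold change, against 50.8% of all genes tested. At an unadjusted p under 0.05, 49 were higher, against 12.3% of all genes, and none was lower. None rose by the adjusted test. Only 11 of the 111 did not overlap between times, against 15.9% of all genes upward and 14.4% downward. The 111 genes were picked by their mean over these same 6 libraries, control 3 h number 3 among them. Their median log2 fold change was 0.62, against 0.21 without control 3 h number 3 and 0.16 without scaling.

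The files name 25 features by symbol, mitochondrial messenger, ribosomal and transfer RNAs. Of these, 3 messenger RNAs had enough reads for a test; none of them changed and all overlapped between times. The cob transcript, for cytochrome b, had 29.2, 67.9 and 238 CPM at 3 h, against 22.2, 36.4 and 44.0 CPM at 15 min (log2 fold change 1.70, edgeR adjusted p = 0.0859). The nad4 transcript, for a subunit of respiratory complex I, had 175, 380 and 540 CPM at 3 h, against 153, 240 and 290 CPM at 15 min (edgeR adjusted p = 0.167). The nad5 transcript, for another subunit of that complex, had 3.46, 9.49 and 97.2 CPM at 3 h, against 2.92, 6.67 and 7.74 CPM at 15 min (edgeR adjusted p = 0.102). The log2 fold change of cob was 0.50 without control 3 h number 3, that of nad4 was 0.28 instead of 0.68, and that of nad5 0.17 instead of 2.63. Without control 3 h number 1 all 3 rose, with edgeR adjusted p of 0.0118 for cob, 0.0244 for nad4 and 0.0273 for nad5. In that fit 3.34% of all genes rose. In all 3 transcripts control 3 h number 3 was the highest library, and number 1 at 3 h lay under the 15 min libraries numbered 2 and 3. The kit selected polyadenylated RNA, so the share of mitochondrial RNA that these values catch is not known. That library's share of reads with several alignments was also the highest, and the part of this in the values of cob, nad4 and nad5 was not tested.

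The files give no names or products for nuclear genes, so the genes with the largest changes are identified by locus alone. The largest rise by the rule for named genes was that of Cre06.g267600, on chromosome 6 from 2357352 to 2364003. It had 8.50, 10.2 and 7.91 CPM at 3 h, against 0.999, 1.17 and 1.15 CPM at 15 min. Its level at 3 h was thus several times that at 15 min in every library (log2 fold change 3.01, SE 0.64, edgeR adjusted p = 0.0365). Cre12.g510800, on chromosome 12 from 1918571 to 1922520, had 4.51, 5.81 and 6.43 CPM at 3 h, against 0.833, 0.585 and 0.574 CPM at 15 min (log2 fold change 2.98, SE 0.62, edgeR adjusted p = 0.0336). At 24 h these genes averaged 0.992 and 0.530 CPM, against 1.11 and 0.664 CPM at 15 min.

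The gene next to Cre12.g510800 also rose, and this was the 1 pair of adjacent genes in which both were called. It is Cre12.g510850, from 1915811 to 1918562 on chromosome 12, and it is named for this position after its values were seen. It had 30.9, 40.7 and 38.8 CPM at 3 h, against 11.6, 12.8 and 11.3 CPM at 15 min, without overlap (log2 fold change 1.62, SE 0.34, edgeR adjusted p = 0.0342). The pair lies end to end, and whether the counting used strand is not given in the sources used here, so reads from where they meet cannot be assigned to 1 of them with certainty.

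The largest fall by the same rule was that of Cre01.g039500, on chromosome 1 from 5555423 to 5565163. It had 0.840, 0.850 and 1.48 CPM at 3 h, against 3.91, 4.21 and 4.01 CPM at 15 min (log2 fold change -2.02, SE 0.40, edgeR adjusted p = 0.0314). Cre07.g327750, on chromosome 7 from 2280792 to 2292053, had 2.62, 2.13 and 1.73 CPM at 3 h, against 8.25, 9.12 and 8.46 CPM at 15 min (log2 fold change -1.94, SE 0.37, edgeR adjusted p = 0.0273). At 24 h they averaged 1.69 and 1.01 CPM, against 4.05 and 8.61 CPM at 15 min. The calls of these 4 genes were lost in 5 of the 6 fits that left out 1 control library, in which their adjusted p reached 0.148 for both that fell and 0.177 for both that rose.

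The smallest adjusted p belonged to other genes. Cre12.g499700 had 9.66, 8.93 and 9.64 CPM at 3 h, against 3.17, 2.46 and 2.29 CPM at 15 min (log2 fold change 1.80, SE 0.22, edgeR adjusted p = 0.000434). Cre06.g263850 had 23.3, 20.1 and 22 CPM at 3 h, against 8.66, 7.95 and 7.60 CPM at 15 min (log2 fold change 1.43, SE 0.18, edgeR adjusted p = 0.000654). Cre11.g467781 had 123, 109 and 78.6 CPM at 3 h, against 42.2, 37.8 and 38.7 CPM at 15 min (log2 fold change 1.39, SE 0.20, edgeR adjusted p = 0.00227). These 3, named after their values were seen, were the genes called in all 6 fits that left out 1 control library.

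The nitrite arm covers the same interval in separate flasks and shares no library with the control arm. Of the 118 genes that rose in the control cultures, 98 had a positive log2 fold change in the nitrite arm, 83.1% against 49% of all genes tested, with a median of 0.23. Of the 53 that fell, 12 were positive there, and the median was -0.27. No gene changed between 3 h and 15 min in the nitrite arm itself by edgeR's adjusted test, and 197 had an unadjusted p under 0.05 (1.45%). DESeq2 also called none there. The libraries labelled nitrite 15 min number 2 and 3 h number 2 enter these values. Without them and control 3 h number 3, the nitrite arm had 2865 calls. There 112 of the 118 genes were positive with a median of 0.66, and 4 of the 53 were positive with a median of -0.64. The 2 nitrite libraries were left out after their values were seen, so these values are no independent sign that the arms moved alike.

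The difference between the arms was tested itself. No gene passed edgeR's adjusted test for a change that differed between control and nitrite cultures, while 814 had an unadjusted p under 0.05 (6%) and DESeq2 called 3. The lowest adjusted p was 0.107. It belonged to Cre12.g499700 and Cre06.g263850, whose log2 fold changes in the nitrite arm were 0.12 and -0.01. In that arm Cre11.g467781 had 0.07, with an adjusted p of 0.395 for the difference. These values include the nitrite libraries labelled number 2. Without the 3 libraries that stood apart the log2 fold changes in the nitrite arm were 0.29 for Cre12.g499700, 0.13 for Cre06.g263850 and 0.30 for Cre11.g467781, beside 1.78, 1.41 and 1.54 in the control arm. The edgeR adjusted p for the difference between arms was then 0.0814, 0.0498 and 0.0393, so Cre06.g263850 and Cre11.g467781 passed in that fit. Without the nitrite libraries labelled number 2 alone the edgeR adjusted p was 0.0718, 0.0503 and 0.110, and none of the 3 passed. In all, 12 genes passed without the 3 libraries that stood apart, 11 of them with the higher change in the control cultures. The 3 genes were named for their control-arm p, and the control libraries form part of this contrast. The nitrite libraries labelled number 2 were left out after their values were seen. The values of these fits are therefore no independent sign that the arms differed.

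Across the lists, the nitrite arm had medians of the same sign for chlorophyll and haem synthesis, 0.63, light-harvesting proteins, -0.47, fermentation, -0.41, and the glyoxylate cycle, -0.24. The summed level of the chlorophyll list in libraries labelled nitrite was 238, 93.8 and 171 CPM at 3 h and 96.2, 188 and 96.9 CPM at 15 min. The values labelled number 2 lay within or next to the other time in both cases. Without the 3 libraries that stood apart the medians in the nitrite arm were 1.92 for chlorophyll and haem synthesis, -1.10 for light-harvesting proteins, -1.40 for fermentation and -0.50 for the glyoxylate cycle. In the control arm they were 1.81, -1.15, -1.07 and -0.66 in that fit. The nitrite libraries labelled number 2 were left out after their values were seen, those of the chlorophyll list among them. The medians without these libraries are therefore no independent sign that the arms moved alike. With all 18 libraries the smallest edgeR adjusted p for a difference between arms was 0.812 among the members of the chlorophyll list. No member of any list had a lower one.

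**Figure D4:**
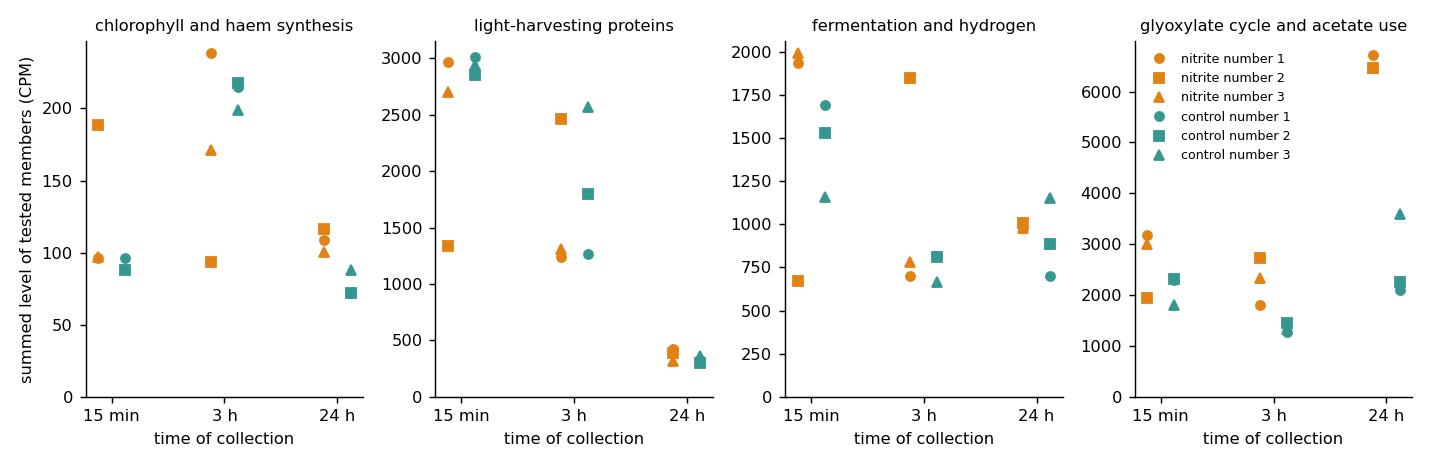
Summed level, in CPM, of the tested members of 4 lists in each library, against time of collection, with nitrite libraries in orange at the left and control libraries in green at the right of each time; the shape gives the library number and each panel has its own axis from 0. In the chlorophyll panel the control libraries lie at 199 to 218 CPM at 3 h and at 87.7 to 96.4 CPM at 15 min, and the squares labelled nitrite number 2 lie with the other time of their arm at 15 min and 3 h.

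At 24 h the control cultures differed far more from 15 min, with 2816 genes higher (20.8%) and 3000 lower (22.1%) by the same test. That comparison uses the same 15 min libraries, so the values are only set side by side. The 118 genes that had risen at 3 h had a median log2 fold change of 0.09 at 24 h over 15 min, with 36 higher and 28 lower. The 53 that had fallen had a median of -0.41, with 10 higher and 26 lower. The chlorophyll list had a median of 1.86 at 3 h and -1.09 at 24 h, with 5 members lower and 1 higher at 24 h. The light-harvesting list had -0.82 at 3 h and -3.55 at 24 h, and 18 of its 21 members were lower at 24 h. The fermentation list had -1.18 at 3 h and -0.13 at 24 h, and the glyoxylate list -0.66 at 3 h and 0.41 at 24 h.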

How the data were processed

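Polyadenylated RNA of each culture was sequenced from stranded libraries, per the labels' protocols. The submitters' processing notes name TopHat2 2.0.13 and HTSeq. The sources used here do not give the build aligned to or whether counting was by strand. Reads with several alignments were tallied in a summary line apart from the genes. The authors deposited raw counts of reads per gene for each library; the 5 summary lines were left out of library sizes and tests, and their shares gave the percentages of reads with several alignments. Genes that passed filterByExpr with a minimum count of 10 were fitted with edgeR 4.0.16 in R 4.3.3 (TMM scaling, robust quasi-likelihood, a mean for each of the 6 groups, all 18 libraries, 12 residual degrees of freedom), and p-values were adjusted over all genes tested. Of 17766 features, 4202 were removed. Flasks of an arm are separate cultures per the series' design text. No 2 libraries of the same group among the 6 control libraries agreed within counting noise. Of 17741 nuclear identifiers, 17738 matched the RefSeq gene table of the assembly, which gave coordinates and no symbols.

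Genes named were the 2 largest rises and 2 largest falls among called genes without overlap and with a mean log2 CPM of at least 1, each called list member, each tested member of lists with 6 or fewer tested members, and each tested organelle gene. The comparison and the lists were chosen with earlier results of these data known. The alternatives were RLE scaling, no scaling, no filter, a 2-fold minimum, only the groups compared, a replicate block, DESeq2 1.42.0 and leaving out libraries. The code was tested on simulated data.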

Additional observations from a re-analysis of the deposited data

Results flagged for a closer look

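In control 3 h number 3, 36.53% of the reads aligned to more than 1 place. These reads lie outside the gene counts used here, and the other 17 libraries of the series had 16.65% to 21.57%. In this library the reads outside any feature were 0.892%, against 0.925% to 1.67% in the other 17. What this library changes in the gene results is given beside them.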

How the results depend on the processing

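All alternatives kept the direction of the 9 called genes named by the rule. The control-arm count of 171 stayed within 1.5 times under RLE scaling (147), without a filter (133) and with at least 2-fold (127). It was 0 without scaling, where 2616 genes had an unadjusted p under 0.05 and the median of all genes shifted to -0.32 from 0.01 with TMM, 667 with DESeq2, 1271 with only the groups compared, 1645 without the 3 libraries that stand apart and 1980 without both nitrite libraries numbered 2. Leaving out 1 control library gave 3 to 894. The share of higher genes was 69.0% with TMM, 64.0% with RLE and 49.97% to 53.4% in the fits with 667 calls or more. In the nitrite arm the count of 0 became 2865 without the 3 libraries and 2446 without both numbered 2. The count of differences between arms, 0, became 12, 7 and, with DESeq2, 3, and 0 to 4 with 1 library left out. With the flask number as a replicate block the control arm had 4 calls, and 2838 with the block in only the groups compared. Deviations of same-numbered libraries correlated at 0.38, 0.01 and 0.37. Numbers 1 and 3 at 3 h correlated best with their own number at 15 min, and number 2 with number 1, at 0.13. This does not settle whether equal numbers share a flask. The labels do not say so, and the main fit took no pairs. Each of these 9 lost its call in 7 to 9 of 16 settings. Why the counts moved was not tested. At these depths 4202 features did not pass the filter and were not tested.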
